A study of Drosophila melanogaster with 6 samples.

Results

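The Turandot genes and *Sid* were followed in heads of *Drosophila melanogaster* across 3 genotypes and 2 times of day. The members were all probe sets of the deposited table whose single annotated gene was a Turandot gene (symbol *Tot* followed by 1 capital letter) or *Sid*. Of 10956 probe sets, 3 met this rule, 1 each for *TotC*, *TotB* and *Sid*. The RefSeq gene table holds 8 Turandot genes, of which *TotA*, *TotE*, *TotF*, *TotM*, *TotX* and *TotZ* were not analysed here. The members were chosen by symbol, with their differences between genotypes on these arrays known, so those differences, the values they were selected on, are described without a test, and only the day-night comparison of the members was tested.

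The Turandot family encodes small secreted stress proteins that the fat body, the insect counterpart of liver and adipose tissue, releases into the hemolymph after infection, heat, ultraviolet light or oxidative stress. Their induction is known to run through the JAK/STAT pathway, in which Unpaired cytokines act on the receptor Domeless, the kinase Hopscotch and the transcription factor Stat92E, together with stress-activated MAP kinases and the NF-kappaB factor Relish of the Imd immune pathway. *Sid* encodes the stress-induced DNase, a nuclease whose transcript is known to rise after bacterial infection and other stress.

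Each genotype was represented by 2 arrays, 1 from heads collected at ZT3 and 1 from heads collected at ZT15, where ZT (Zeitgeber time) is the number of hours since lights-on, so that ZT3 is day and ZT15 is night. The genotypes were labelled *cbt* over-expression, *cbt* RNAi and control, and the design text calls the control flies cyo, the usual name of a second-chromosome balancer. *cbt*, or *cabut*, is a transcription factor gene of the zinc finger class. RNA came from 30 heads per array after 3 to 4 days in light-dark cycles, and the driver of the transgenes, the sex and the age of the flies are not given in the sources used here. The spread between the 2 arrays of a genotype includes any day-night difference. The labels name no separate crosses or cultures, so the rest of that spread may be technical.

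Before the members, 3 features of the arrays bear on every comparison. The *cbt* probe set went against the labels: it read 8.98 and 9.90 (log2 signal, ZT3 and ZT15) for the over-expression-labelled arrays, 10.99 and 11.05 on the RNAi-labelled arrays, and 10.21 and 10.72 on the control arrays. It was lower in over-expression-labelled than in control heads (log2 -1.03 ± 0.20 SE, limma adjusted p = 0.0476), and in RNAi-labelled heads it lay 0.55 above control without passing (adjusted p = 0.134). The Dicer gene *Dcr-2*, which acts in RNA interference, was 17.8-fold higher on the RNAi-labelled than on the control arrays (log2 4.15 ± 0.09 SE, limma adjusted p = 0.000374). On the over-expression-labelled ZT3 array 56 genes lay at least 4-fold above every other array, against 0 to 2 on the others. Genotypes are therefore called by their labels, and the members' differences from control in over-expression-labelled heads are also given without that ZT3 array. Markers of head tissue were present: photoreceptor markers, of which 7 of 10 were on the table and *ninaE*, *ninaC* and *norpA* were not, averaged 10.30 to 11.16 on the 6 arrays, and neuron markers, 8 of 10 on the table, averaged 8.72 to 9.60 (log2 signal).

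*TotC* had its highest signal in over-expression-labelled heads and its lowest in RNAi-labelled heads, with control heads between them. Its signals at ZT3 and ZT15 were 13.01 and 12.43 for the over-expression-labelled arrays, 5.21 and 6.02 on the RNAi-labelled arrays, and 10.40 and 10.80 on the control arrays (log2 signal). The 3 genotypes did not overlap, and each pair of arrays of 1 genotype lay closer together than any 2 arrays of different genotypes. The group means were 12.72 ± 0.41 (SD, n = 2) in over-expression-labelled heads, 5.62 ± 0.57 in RNAi-labelled heads and 10.60 ± 0.29 in control heads.

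Against control, *TotC* was 6.11-fold higher at ZT3 and 3.09-fold higher at ZT15 in over-expression-labelled heads, a mean log2 difference of 2.12 ± 0.70 (SD of the 2 times). In RNAi-labelled heads it was 36.4-fold lower than control at ZT3 and 27.6-fold lower at ZT15, a mean log2 difference of -4.98 ± 0.28. The difference from control was thus larger in the RNAi-labelled than in the over-expression-labelled heads at both times, a contrast that was not tested. Between over-expression-labelled and RNAi-labelled heads *TotC* differed by 7.79 log2 units at ZT3 and 6.41 at ZT15, the largest mean difference, 7.10, among the 8516 genes on the table. By size of difference it stood at place 2 in RNAi-labelled against control heads and at place 68 in over-expression-labelled against control heads. Both comparisons with control use the same 2 control arrays, and all 3 were known when the gene was chosen.

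The over-expression-labelled ZT3 array carried the higher of the pair of *TotC* values. Without it the fitted log2 difference from control was 1.53, and without the ZT15 array it was 2.71. Leaving out 1 RNAi-labelled array in turn gave -4.54 and -5.43 for RNAi-labelled against control heads.

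**Figure D1:**
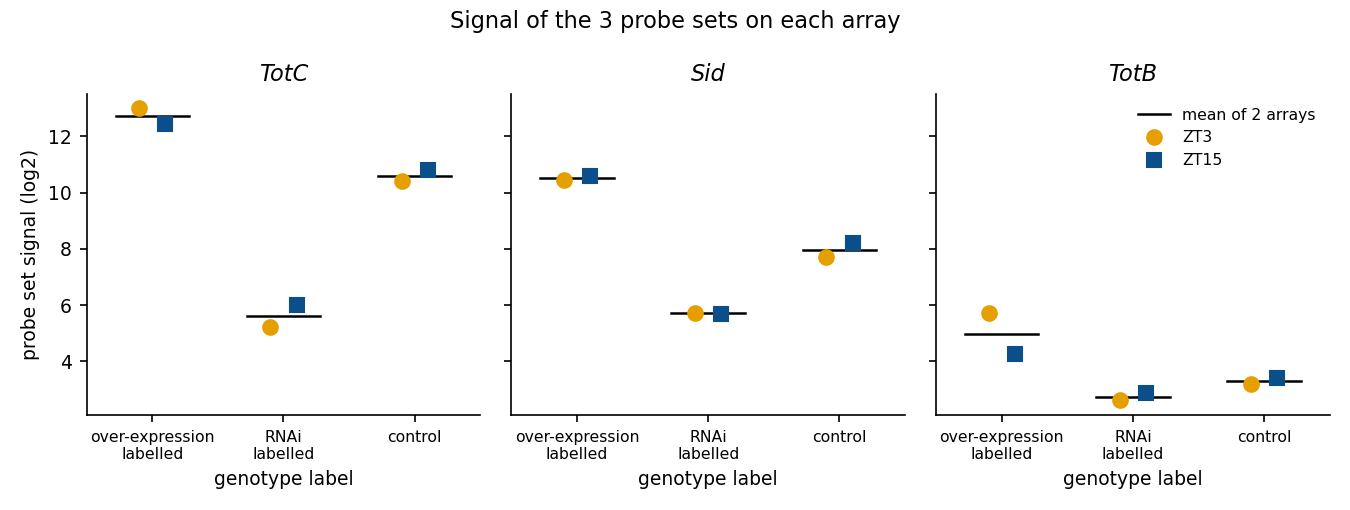
Log2 probe set signal of *TotC*, *Sid* and *TotB* on each of the 6 arrays, by genotype label (x axis). Circles are ZT3 arrays, squares ZT15 arrays and bars the mean of the 2 arrays of a genotype. In each panel both over-expression-labelled arrays lie above, and both RNAi-labelled arrays below, both control arrays. Levels are not comparable between probe sets.

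*Sid*, the nuclease gene, followed the same order of genotypes with a smaller span. Its pair of arrays lay closer together than that of *TotC* in over-expression-labelled and RNAi-labelled heads, but not in control heads. Its ZT3 and ZT15 signals were 10.46 and 10.61 for the over-expression-labelled arrays, 5.73 and 5.69 on the RNAi-labelled arrays, and 7.72 and 8.22 on the control arrays. Again no 2 genotypes overlapped. The means were 10.53 ± 0.10 (SD, n = 2) in over-expression-labelled heads, 5.71 ± 0.03 in RNAi-labelled heads and 7.97 ± 0.35 in control heads. The control pair, not that of an altered genotype, lay farthest apart, a distance that includes any day-night difference.

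*Sid* was 6.67-fold higher than control at ZT3 and 5.23-fold higher at ZT15 in over-expression-labelled heads (mean log2 difference 2.56 ± 0.25, SD of the 2 times). In RNAi-labelled heads it was 3.99-fold lower at ZT3 and 5.79-fold lower at ZT15 (-2.26 ± 0.38). Unlike *TotC*, whose distances from control were 2.12 and -4.98, *Sid* lay about as far above control in over-expression-labelled heads as below it in RNAi-labelled heads, a contrast that was not tested. Over-expression-labelled minus RNAi-labelled heads gave 4.73 at ZT3 and 4.92 at ZT15, a mean 28.4-fold difference and place 6 by size among all genes. Without the over-expression-labelled ZT3 array the difference of *Sid* from control was 2.52.

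*TotB* lay near the bottom of the signal range. Its signals were 5.71 (ZT3) and 4.25 (ZT15) for the over-expression-labelled arrays, 2.61 and 2.88 on the RNAi-labelled arrays, and 3.19 and 3.41 on the control arrays. The lowest signals of any probe set on the 6 arrays were 2.32 to 2.65, and every probe set on the deposited table reached 4.00 or more on at least 1 array. *TotB* met that level on the 2 over-expression-labelled arrays and on none of the other arrays. The sources used here do not give the filter that made the table. If it asked for such a level on 1 array, *TotB* passed through the over-expression-labelled arrays alone, and its higher signal there carries no weight of its own.

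The mean of *TotB* was 4.98 ± 1.03 (SD, n = 2) in over-expression-labelled heads, 2.74 ± 0.19 in RNAi-labelled heads and 3.30 ± 0.16 in control heads. The difference from control in over-expression-labelled heads was 2.52 log2 units at ZT3 but 0.84 at ZT15, and the fitted value was 0.83 when the ZT3 array of that genotype was left out, against 1.68 with all arrays. In RNAi-labelled heads the difference was -0.58 at ZT3 and -0.54 at ZT15, among signals that all lay under 4.00, and it was -0.31 after the arrays were quantile normalized again.

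Both over-expression-labelled arrays lay above both control arrays for 27.8% of all genes, and both RNAi-labelled arrays lay below both control arrays for 28.3%. The 3 members met each of these conditions. Both over-expression-labelled arrays lay above both RNAi-labelled arrays for 33.0% of genes, the 3 members included. These shares describe the table, and since the members were chosen with these differences known, nothing is read from their count.

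*TotC* and *TotB* are direct neighbours in the gene order of the RefSeq table, with *TotA* on one side and *TotZ* on the other, and their signals had a Pearson correlation of 0.821 across the 6 arrays. The correlation was 0.959 for *TotC* and *Sid* and 0.876 for *TotB* and *Sid*. The 6 points of each correlation share their arrays and fall into 3 genotypes, so these values are descriptive. Whether the probes of *TotC* or *TotB* also bind transcripts of the other Turandot paralogs was not tested, because probe sequences were not used here.

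Neighbouring genes outside the family had narrower spans over the same arrays. Around the Turandot cluster, the glutamate receptor genes *KaiR1D* and *Grik* spanned 0.35 and 1.29 log2 units between their lowest and highest array, *Ktl* spanned 0.94 and the ionotropic receptor gene *Ir93a* 0.32. *TotC* spanned 7.79 and *TotB* 3.09. Next to *Sid*, which spanned 4.92, the ABC transporter gene *snu* spanned 0.22 and the huntingtin gene *htt* 0.41. The median span of all genes was 0.54. The neighbours were looked up after the members' values had been seen.

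None of the 3 members passed the test of night against day over all 6 arrays. For *TotC* the ZT15 minus ZT3 difference was 0.21 ± 0.26 (SE, limma, 95% interval -0.45 to 0.87, adjusted p = 0.732), for *Sid* 0.20 ± 0.12 (-0.10 to 0.50, adjusted p = 0.485) and for *TotB* -0.32 ± 0.37 (-1.25 to 0.61, adjusted p = 0.714). Of the 8516 genes 59 were called for time, 0.693% of the table (1266, or 14.9%, at an unadjusted p under 0.05), and 0 of the 3 members were among them by limma, with 0 of the 3 at an unadjusted p under 0.05. The intervals, which are for the mean over the 3 genotypes, leave room for night-day differences of up to 0.87 log2 units for *TotC* and 0.50 for *Sid*. For *TotB* they reach down to -1.25.

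Within genotypes the day-night differences of the Turandot genes did not share a sign. *TotC* was lower at ZT15 than at ZT3 by a log2 difference of -0.58 in over-expression-labelled heads, but higher by 0.81 in RNAi-labelled heads and by 0.41 in control heads. *TotB* gave -1.45 in over-expression-labelled heads, 0.27 in RNAi-labelled heads and 0.22 in control heads. *Sid* gave 0.15, -0.04 and 0.50 in the same order of genotypes. With either over-expression-labelled array left out the fitted time difference of *TotB* was 0.24, and with either RNAi-labelled array left out that of *TotC* was -0.0837, so the sign of both rested on single genotypes. Whether the genotypes differ in their day-night difference could not be tested with single arrays.

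**Figure D2:**
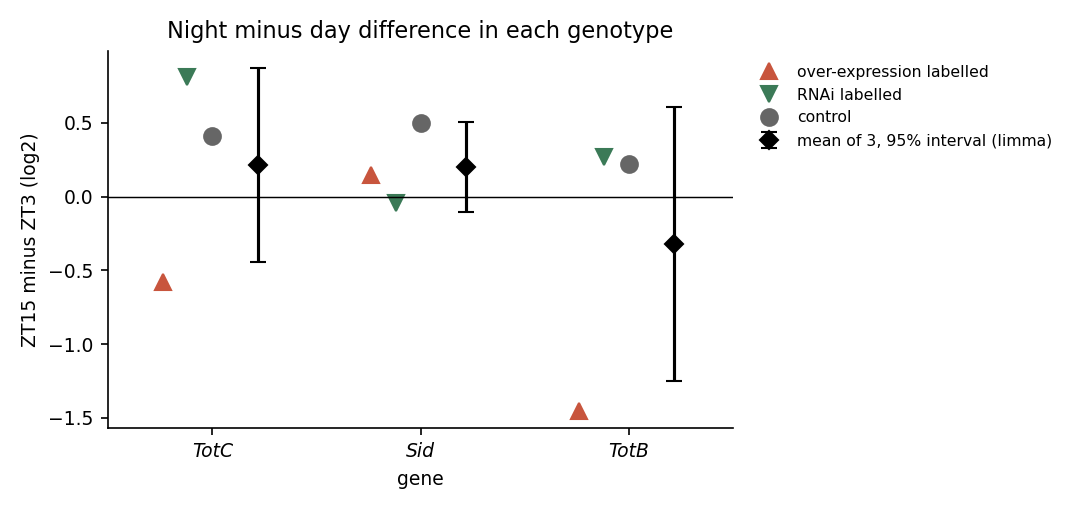
ZT15 minus ZT3 difference (log2) of *TotC*, *Sid* and *TotB* in each genotype (triangles and circle, 1 array against 1) and the mean over the 3 genotypes with its 95% limma interval (diamond). All 3 intervals include 0, and *TotC* and *TotB* were lower at ZT15 in over-expression-labelled heads only.

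The genes most like *TotC* and *Sid* in pattern were taken as the 5 with the highest Pearson correlation over the 6 arrays among the 376 other genes with a span of at least 2 log2 units. For *TotC* the correlations were 0.992 to 0.997, and the 1 gene of the 5 with a name other than a CG or CR number was *mthl2*, a receptor gene of the Methuselah family (r = 0.993). *mthl2* read 6.59 and 6.41 for the over-expression-labelled arrays, 4.33 and 4.39 on the RNAi-labelled arrays and 5.61 and 5.73 on the control arrays, a narrower span than that of *TotC*.

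For *Sid* the 5 correlations were 0.994 to 0.996, and 3 of the genes carried names. *BomS5*, which encodes a short Bomanin, a Toll-dependent immune peptide, read 13.22 and 13.05 for the over-expression-labelled arrays, 11.18 and 11.23 on the RNAi-labelled arrays and 12.03 and 12.22 on the control arrays. *serp*, a chitin deacetylase gene, read 9.03 and 9.26 for the over-expression-labelled arrays, 6.41 and 6.59 on the RNAi-labelled arrays and 7.35 and 7.78 on the control arrays. In all these genes, as in *Sid*, no genotypes overlapped, which the choice by correlation with *Sid* made likely and which is no separate result. The other was *dnd* (r = 0.995). The 6 points share their arrays, and the correlations describe which profiles looked alike.

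**Figure D3:**
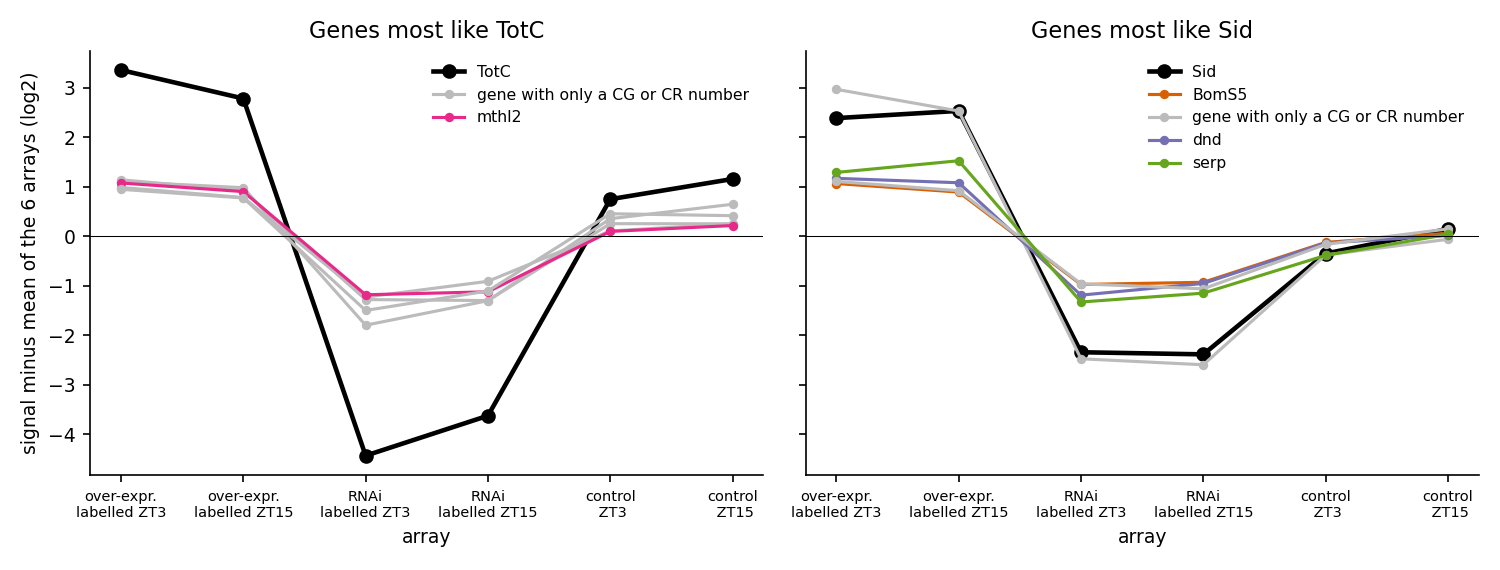
Log2 signal minus the mean of the 6 arrays for *TotC* (left) and *Sid* (right), in black, and the 5 genes with the most similar pattern. Arrays run from over-expression-labelled through RNAi-labelled to control. All profiles are highest on the over-expression-labelled arrays and lowest on the RNAi-labelled arrays, an order that the choice by correlation made likely. Every gene drawn beside *TotC* has a smaller span than *TotC*.

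The pathways known to act upstream of the Turandot genes were followed through lists of their genes. Of 15 JAK/STAT pathway genes listed, 10 were on the table, and *upd1*, *upd2*, *upd3*, *hop* and *Socs36E* were not, so neither the cytokines nor the kinase were analysed here. In over-expression-labelled against control heads 0 of the 10 were called by limma (4 at an unadjusted p under 0.05, as were 29.2% of all genes), with a median log2 difference of 0.19 beside 0.01 over all genes, of which 7.05% were called. In RNAi-labelled against control heads 0 were called (3 unadjusted, beside 32.0% of all genes), with a median of 0.04 beside 0.01 and 9.38% called overall. With the signal filter at the 40th percentile 1 was called in over-expression-labelled and 2 in RNAi-labelled heads.

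Between over-expression-labelled and RNAi-labelled heads, 3 of the 10 JAK/STAT pathway genes were called, all higher. Of all genes 15.8% were called higher, 11.9% lower and 27.6% in either direction, so a count of 3 of 10 does not set the list apart. *Stat92E*, the transcription factor of the pathway, read 10.81 and 10.66 for the over-expression-labelled arrays, 10.07 and 10.20 on the RNAi-labelled arrays and 10.50 and 10.62 on the control arrays, which gave a difference of 0.61 ± 0.10 log2 units between the 2 altered genotypes (SE, limma adjusted p = 0.0140). The call was lost in 1 of 6 fits with an array left out, that without the RNAi-labelled ZT3 array. *Ptp61F*, a phosphatase that dampens the pathway, was 0.59 log2 units higher (adjusted p = 0.0203) and *ken*, a repressor of some Stat92E targets, 0.52 higher (adjusted p = 0.0318), and these calls were lost in 3 and 4 of the 6 fits. The receptor gene *dome* differed by 0.01 between the altered genotypes and lay 0.46 and 0.45 above control in over-expression-labelled and RNAi-labelled heads without passing (adjusted p = 0.0646 and 0.0610).

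Among 7 of 10 listed genes linked to JAK/STAT signalling in other contexts, 2 were higher and 2 lower in over-expression-labelled than in control heads, and 0 were higher and 3 lower in RNAi-labelled heads. The background was 4.83% higher and 2.22% lower for over-expression-labelled, and 3.16% higher and 6.22% lower for RNAi-labelled against control heads. *Tep4*, a thioester-containing immune protein gene, was 1.41-fold higher than control in over-expression-labelled heads (adjusted p = 0.0352) and 2.24-fold lower in RNAi-labelled heads (adjusted p = 0.00614). *vir-1*, a marker of virus-induced JAK/STAT activity, read 10.07 and 9.92 for the over-expression-labelled arrays, 8.90 and 8.67 on the RNAi-labelled arrays and 9.55 and 9.84 on the control arrays, and was called lower in RNAi-labelled heads (1.88-fold, adjusted p = 0.0295). *NimB1*, a secreted Nimrod protein gene, was called 1.99-fold higher in over-expression-labelled heads (adjusted p = 0.0239). The transcription factor genes *zfh1* and *chinmo* were lower in over-expression-labelled heads by 1.71-fold and 1.60-fold (adjusted p = 0.0199 and 0.0332), and *zfh1* was also lower in RNAi-labelled heads (1.75-fold, adjusted p = 0.0150).

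The stress MAP kinase pathway list held kinases and other genes of these pathways, such as the receptor gene *grnd*. Of its 19 genes on the table from 21 listed, 0 were higher and 1 lower in over-expression-labelled than in control heads. The lower gene was *Mkk4*, a kinase upstream of JNK (1.41-fold, adjusted p = 0.0319). In RNAi-labelled against control heads 0 were higher and 1 lower, *p38c*, a p38 family gene with signals of 3.26 and 3.73 on the RNAi-labelled arrays and 4.26 and 4.78 on the control arrays (adjusted p = 0.0185). Beside the 7.05% and 9.38% of all genes called, 1 of 19 does not set the list apart. The list medians were -0.08 and -0.05 log2 units, beside 0.01 for all genes in both comparisons. *Mekk1*, a kinase known to be needed for Turandot induction under stress, differed from control by 0.23 in over-expression-labelled and 0.25 in RNAi-labelled heads without passing (adjusted p = 0.203 and 0.170). It was picked out for that known role after its values were seen.

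Of 20 Imd and Toll pathway genes on the table from 24 listed, 5 were higher and 0 lower in over-expression-labelled than in control heads, beside 4.83% and 2.22% of all genes, with a median of 0.12. *SPE*, the protease that activates the Toll ligand Spätzle, was 2.23-fold higher (log2 1.16 ± 0.16 SE, adjusted p = 0.0240), *spz*, the ligand gene itself, 1.93-fold (adjusted p = 0.0120), *Rel*, the NF-kappaB factor of the Imd pathway, 1.72-fold (adjusted p = 0.0169) and *nec*, a serpin that restrains Toll activation, 1.66-fold (adjusted p = 0.0306). In RNAi-labelled heads 0 were higher and 1 lower, *psh*, a protease upstream of Spätzle (1.40-fold, adjusted p = 0.0462), with a median of -0.16. *Rel* read 10.20 and 9.85 for the over-expression-labelled arrays, 9.09 and 8.88 on the RNAi-labelled arrays and 9.31 and 9.17 on the control arrays, an order of genotypes shared with *TotC* and *Sid* but with RNAi-labelled and control arrays close together.

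Among other stress and immune outputs, antimicrobial peptide genes were called higher in over-expression-labelled heads. Of 10 antimicrobial peptide genes on the table from 20 listed, 4 were higher and 0 lower in over-expression-labelled heads (9 at an unadjusted p under 0.05), beside 4.83% of all genes called higher and 29.2% at that unadjusted p, with a median of 1.77. They were the Defensin gene *Def* (25.6-fold, adjusted p = 0.0138), *edin* (log2 3.26, adjusted p = 0.0177), *AttD* (log2 1.90, adjusted p = 0.0312) and *Drsl5* (log2 1.11, adjusted p = 0.0277). *Def* read 11.60 and 11.21 for the over-expression-labelled arrays, 6.05 and 6.96 on the RNAi-labelled arrays and 7.36 and 6.09 on the control arrays. Unlike *TotC* and *Sid*, its RNAi-labelled and control arrays overlapped. The *Def* difference from control was 5.44 without the control ZT3 array and 3.92 without the control ZT15 array, and that of *edin* was 2.52 and 3.99, with the calls lost in these fits. Between over-expression-labelled and RNAi-labelled heads *Def* was 4.03 without the RNAi-labelled ZT3 array and 5.77 without the ZT15 array of that genotype. In RNAi-labelled heads 0 were higher and 2 lower, *Drsl5* and *BomS2* (1.75-fold and 1.38-fold, adjusted p = 0.0456 and 0.0391), with a median of -0.05. Of 19 heat shock and oxidative stress genes from 35 listed, 1 was higher in over-expression-labelled heads, *Sod2* (1.37-fold, adjusted p = 0.0337), and 2 were lower in RNAi-labelled heads, the co-chaperone gene *stv* (1.89-fold, adjusted p = 0.00803) and *maf-S* (1.45-fold, adjusted p = 0.0363), beside 7.05% and 9.38% of all genes called. Of 17 nuclease, DNA damage and cell death genes from 26 listed, a list made for *Sid*, 0 were called by limma in either comparison with control (5 and 8 at an unadjusted p under 0.05, beside 29.2% and 32.0% of all genes). Between over-expression-labelled and RNAi-labelled heads 2 of them were higher and 2 lower, beside 15.8% and 11.9% of all genes. For night against day 0 genes of any of these 7 lists were called by limma, beside 0.693% of all genes. At an unadjusted p under 0.05 there were 1 to 4 per list, beside 14.9% of all genes. By share these ran from 1 of 17 nuclease, DNA damage and cell death genes to 4 of 7 genes linked to JAK/STAT signalling.

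Between over-expression-labelled and RNAi-labelled heads, the genotypes farthest apart in *TotC* and *Sid*, more list genes were called, as were more of all genes. Of all genes 15.8% were called higher, 11.9% lower and 27.6% in either direction. Beside these shares, the counts did not set apart the JAK/STAT pathway, stress MAP kinase pathway, heat shock and oxidative stress, or *Sid* lists. Of the 7 genes linked to JAK/STAT signalling 3 were higher and 1 lower, with *Tep4* 1.66 and *vir-1* 1.21 log2 units higher and *chinmo* -0.88. Of the stress MAP kinase pathway genes 2 were higher and 4 lower. *p38c* gave 1.32 and *grnd*, which encodes a receptor for the fly tumour necrosis factor Eiger, 1.04. The JNK gene *bsk* gave -0.45 and *Mkk4* -0.43. Of the Imd and Toll genes 9 were higher and 1 lower, with *SPE* at 1.66, *spz* at 1.13 and *Rel* at 1.03. Of the antimicrobial peptide genes 6 were higher and 0 lower, with *Def* at 4.90 and the antifungal peptide gene *Drs* at 4.10 (limma adjusted p = 0.0491). *Drs* differed by 1.85 at ZT3 and 6.34 at ZT15, since the RNAi-labelled arrays read 10.52 and 6.13, and with 1 array left out its difference was 1.86 (without the RNAi-labelled ZT15 array) to 6.34 (without the RNAi-labelled ZT3 array), with the call lost in 3 of 6 fits. Of the heat shock and oxidative stress genes 4 were higher and 1 lower, with the small heat shock protein gene *Hsp27* at 2.29 and the catalase gene *Cat* at 0.98, against *Keap1* at -0.47. *Hsp27* differed by 3.17 at ZT3 and 1.42 at ZT15, was 1.57 without the over-expression-labelled ZT3 array and 3.01 without the ZT15 array of that genotype, and lost its call without the RNAi-labelled ZT3 array (1.70). Of the list made for *Sid*, *Corp* and the caspase gene *Dcp-1* were higher by 1.08 and 0.78, and *skl* and the apoptosome gene *Dark* gave -0.71 and -0.46.

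Calls against control depended on single arrays. Without the control ZT3 array 0 of all genes were called in over-expression-labelled heads and 3 in RNAi-labelled heads, and without the control ZT15 array 0 and 0, by limma, with 1498 and 1815, and 1287 and 1270 at an unadjusted p under 0.05. Each of the 14 gene calls named for over-expression-labelled and the 9 for RNAi-labelled against control heads was lost in at least 1 of the 6 fits with an array left out, whereas 13 of 27 between the altered genotypes held in all 6.

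**Figure D4:**
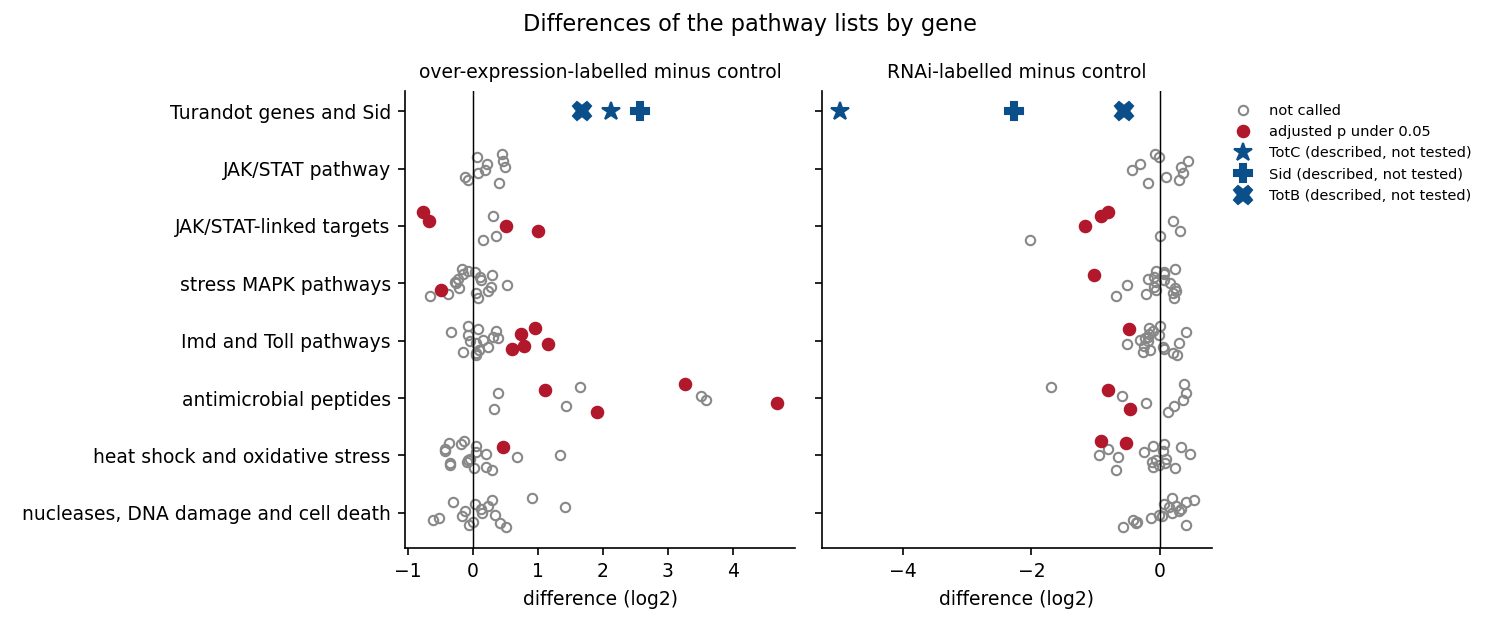
Log2 difference from control in over-expression-labelled heads (left) and RNAi-labelled heads (right) for the 3 members (blue symbols, top) and for each gene of 7 lists of stress and immune genes (circles, filled red where the limma adjusted p was under 0.05). Both panels use the same 2 control arrays. *TotC* lies at -4.98 on the right, beyond every list gene there, while the antimicrobial peptide gene *Def*, at 4.68, lies farthest out on the left.

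Cell type markers moved with the members in part, and their share in the result was not tested. In whole heads, fewer cells of a type and less RNA per cell cannot be told apart. All 10 hemocyte markers were on the table, and the log2 of their summed signal came to 12.96 and 12.73 for the over-expression-labelled arrays, 12.10 and 11.97 on the RNAi-labelled arrays and 12.58 and 12.33 on the control arrays. The sum had the genotype order of *TotC* and *Sid* over a narrower span, but not every marker did. *Hml* read 9.14 and 8.87 on the RNAi-labelled arrays, above the 8.87 and 8.33 of the control arrays at each time. Single markers ranged from -0.03 to 1.02 log2 units in over-expression-labelled against control heads, and from -1.08 to 0.40 in RNAi-labelled against control heads. Of the 10, 3 were called higher in over-expression-labelled heads and 5 lower in RNAi-labelled heads than in control, beside 4.83% and 6.22% of all genes.

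Fat body is the tissue known to make Turandot proteins, and its markers differed singly in both directions. With 10 of 12 on the table and *Fbp1* and *to* not on it, the log2 of the summed signal came to 16.65 and 16.71 for the over-expression-labelled arrays, 16.53 and 16.54 on the RNAi-labelled arrays, and 16.65 and 16.69 on the control arrays. In over-expression-labelled heads 1 was higher and 1 lower, *Tsf1* (2.18-fold) and *Lsd-1* (3.24-fold), beside 4.83% and 2.22% of all genes. In RNAi-labelled heads 0 were higher and 2 lower, *fit* (3.23-fold) and *mdy* (1.60-fold), beside 3.16% and 6.22%. The single markers ranged from -1.70 to 1.13 log2 units in over-expression-labelled against control heads, and the sum is weighted towards the brightest probe sets.

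Digestive tract markers, 5 of 11 on the table, were all highest on 1 array, that of over-expression-labelled heads at ZT3, with a summed signal of 12.10 there, against 7.51 on the over-expression-labelled ZT15 array, 7.59 and 7.79 on the RNAi-labelled arrays and 7.95 and 7.17 on the control arrays. Muscle markers, 3 of 6 on the table, summed to 11.15 on the over-expression-labelled ZT3 array and to 10.34 to 10.58 on the others. Photoreceptor sums were 14.76 and 14.94 for the over-expression-labelled arrays, 15.14 and 15.14 on the RNAi-labelled arrays and 14.99 and 14.94 on the control arrays. Neuron sums were 12.53 and 12.83 for the over-expression-labelled arrays, 13.33 and 13.13 on the RNAi-labelled arrays and 13.12 and 13.24 on the control arrays. Between over-expression-labelled and RNAi-labelled heads these neural markers ran opposite to *TotC*. By limma 0 of 7 photoreceptor markers were higher and 5 lower, and 0 of 8 neuron markers higher and 4 lower. Of the 10 hemocyte markers 9 were higher and 0 lower, beside 15.8% and 11.9% of all genes. Glia sums, with 6 of 7 markers on the table, were 13.21 to 13.57.

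**Figure D5:**
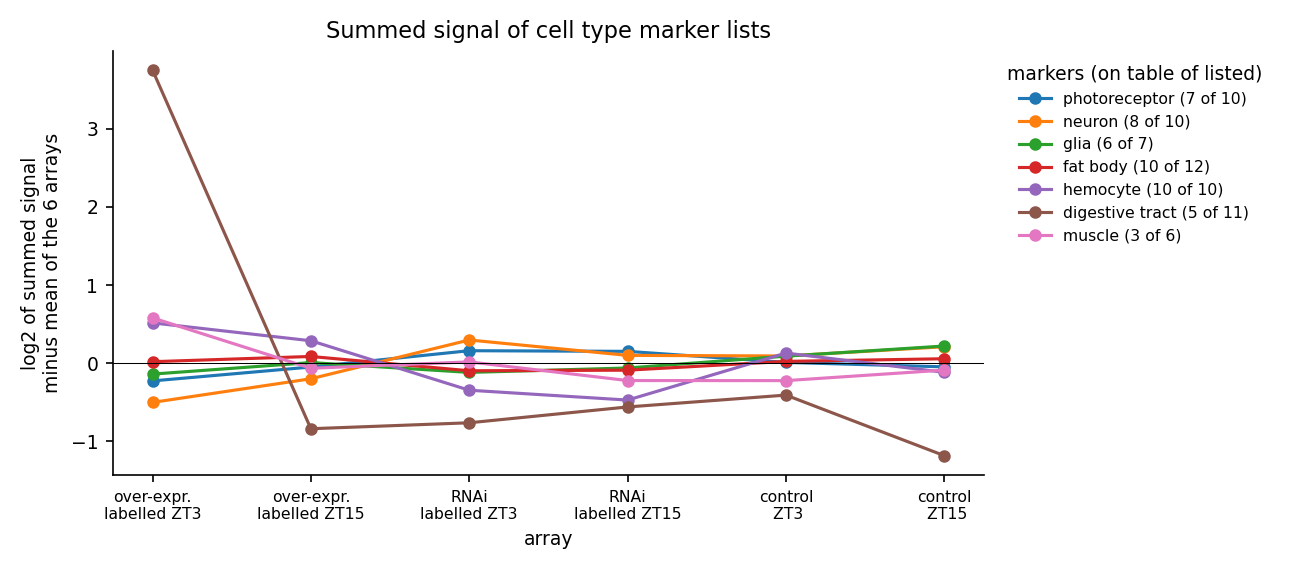
Log2 of the summed signal of 7 cell type marker lists on each array, minus the mean of the 6 arrays (arrays from over-expression-labelled through RNAi-labelled to control, ZT3 before ZT15). The digestive tract sum stands out on the over-expression-labelled ZT3 array, and the hemocyte sum is higher on both over-expression-labelled arrays than on both RNAi-labelled arrays.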

How the data were processed

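The authors deposited log2 probe set signals of Affymetrix Drosophila 2.0 arrays (the scale was read from the values), and the submitters' processing notes name Affymetrix Expression Console as the tool. Its version and the normalization method are not given in the sources used here. All 6 arrays were used. Gene names came from the platform annotation, updated by gene ID through RefSeq (9260 of 9286 with 1 gene matched, 276 had several genes and 1394 none listed). Each gene was represented by its brightest probe set on average, giving 8516 genes, with no further signal filter because dim probe sets were already missing. limma 3.58.1 in R 4.3.3 fitted genotype and time as additive terms (2 residual and 3.30 prior degrees of freedom), with an intensity trend and Benjamini-Hochberg adjustment at 0.05 over all genes, two-sided. Differences are the first-named group minus the second. Alternatives were a signal filter at the 40th percentile, the mean of probe sets or every probe set, no intensity trend, a second quantile normalization, ribosomal centring (31 genes), other model terms, and each array left out. The fit of time, but not that of genotype, was first tested on simulated arrays without genotype differences. It found 30.2% of changes of 0.5 log2 units, 69.0% of those of 1.0 and 91.6% of those of 2.0. For arrays, their number limits the precision.

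Members, gene lists and tests were chosen with earlier results of these data known. Named list genes are up to 4 per list and comparison with the largest differences among those called, leaving out genes with only a CG or CR number. *cbt* and *Dcr-2* checked the labels. *dome*, *Mekk1* and the neighbours were added after values were seen. Sequences and coordinates were not used here.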

Additional observations from a re-analysis of the deposited data

Results flagged for a closer look

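The day-night difference (ZT15 minus ZT3) had opposite signs in an altered genotype and in control for each of the 3 members, 1 array against 1 per genotype, and the difference between genotypes was not tested. For *TotC* it was -0.58 on the log2 scale in over-expression-labelled heads and 0.41 in control heads. For *TotB* it was -1.45 in over-expression-labelled heads and 0.22 in control heads, with both control signals under 4.00. For *Sid* it was -0.0428 in RNAi-labelled heads, only a 1.03-fold difference, and 0.50 in control heads.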

How the results depend on the processing

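The labels give no replicate numbers by which to pair arrays. Across genotypes the arrays were matched by time alone, which is a term in the fit. Of 1176 values recomputed under the alternatives, 895 kept their direction and call, moved by less than the spread or, for counts, stayed within 1.5-fold. A further 158 single-gene calls were lost, 119 values moved and 4 changed sign, and the cause was not tested. Some of the 895 could not have changed, because each member has 1 probe set and its genotype differences do not depend on the model terms.

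Genes called in over-expression-labelled against control heads numbered 368 without an intensity trend and 226 without the time term, beside 600, and 0 to 1299 with 1 array left out. In RNAi-labelled against control heads they numbered 507, 351 and, with only those genotypes fitted, 1599, beside 799, and 0 to 1597 with 1 array out. Between the altered genotypes they numbered 1308 with only those fitted, beside 2352, and 585 to 2537. For time they numbered 29 without a trend and 3 without the genotype term, beside 59, and 0 to 146.

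With 1 array out, the difference of *TotC* was 1.53 to 2.71 (over-expression-labelled minus control), -5.43 to -4.54 (RNAi-labelled minus control), 6.51 to 7.70 (over-expression-labelled minus RNAi-labelled) and -0.0837 to 0.61 (ZT15 minus ZT3). In the same order it was 2.34 to 2.78, -2.49 to -2.04, 4.65 to 5.01 and 0.05 to 0.32 for *Sid*, and 0.83 to 2.53, -0.997 to -0.118, 1.39 to 3.08 and -0.61 to 0.24 for *TotB*. The sign changes were those of *TotC* in time (-0.0837, without either RNAi-labelled array) and of *TotB* in time (0.24, without either over-expression-labelled array). *TotB* in RNAi-labelled against control heads was -0.31 after quantile normalization and -0.52 after ribosomal centring, beside -0.56, and had no value under the 40th percentile filter. *Sid* between the altered genotypes was 4.69 after ribosomal centring, beside 4.83.

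Counts of called list genes are given for over-expression-labelled, then RNAi-labelled, against control. Under the 40th percentile filter the JAK/STAT pathway had 1 and 2, and the RNAi-labelled count of stress MAP kinase pathway genes was 2. The RNAi-labelled count of nuclease, DNA damage and cell death genes under this filter was 1, also 1 between the altered genotypes. Without the trend, stress MAP kinase pathway genes had 0 in over-expression-labelled heads, and heat shock and oxidative stress genes 0 and 1. In that fit Imd and Toll genes had 3 and 0, and nuclease genes 1 in over-expression-labelled heads. Antimicrobial peptides had 0 in RNAi-labelled heads without the trend, and 1 after quantile normalization. With 1 array out the counts in both, then between the altered genotypes, were 0 to 1, 0 to 2 and 0 to 4 (JAK/STAT), 0 to 4, 0 to 4 and 3 to 4 (linked genes), 0 to 3, 0 to 3 and 1 to 4 (kinases), 0 to 4, 0 to 1 and 4 to 9 (Imd and Toll), 0 to 8, 0 to 3 and 5 to 9 (antimicrobial peptides, with 0 to 1 for time), 0 to 5, 0 to 7 and 2 to 6 (heat shock), and 0 to 4, 0 to 2 and 0 to 8 (nuclease). With 2 arrays per genotype the number of arrays limits every call, and signals under 4.00, as for *TotB* outside over-expression-labelled heads, lie near the lowest on the arrays.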
